A study of Arabidopsis thaliana with 9 samples.

Results

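The genes described are 32 nuclear genes for subunits of the photosynthetic electron transport chain of Arabidopsis thaliana. They were chosen as a list of locus codes from the 32833 genes of an RNA sequencing table. No cut on their values was used, but earlier results of these data were known. The list takes 12 photosystem I genes, 10 photosystem II genes, PETC of the cytochrome b6f complex, 2 plastocyanins, 2 leaf ferredoxins, 2 ferredoxin-NADP reductases (FNR) and 3 ATP synthase genes. All 32 were found in the table and all 32 passed the filter on low values.

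Whole seedlings of 3 groups were sequenced, with 3 libraries each: the wild type Col-0, 2cpab mutants that were green, and 2cpab mutants that were albino. The mutant takes its name from 2CPA and 2CPB, which encode the 2-Cys peroxiredoxins of the chloroplast, thiol enzymes that reduce peroxides. All seedlings were 6 days old, raised on MS medium with 0.5% sucrose under constant light (125 µE m-2 s-1). The green and albino groups share the mutant name and were told apart by their colour. Whether they share a genotype cannot be read from the labels, as the alleles behind the mutant name are not given in the sources used here. Nothing in the labels ties the replicates to separate cultures, and p-values here measure only the spread between the sequenced samples, which may be technical.

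In the thylakoid membrane, photosystem II takes electrons from water, the cytochrome b6f complex and plastocyanin carry them to photosystem I, and ferredoxin and FNR pass them on to NADP. The proton gradient built on the way drives the ATP synthase. The reaction centre proteins are encoded in the plastid genome, while most of the peripheral subunits and the mobile carriers are encoded in the nucleus and imported. Nuclear photosynthesis genes of this kind are known to depend on light and on signals from the developing plastid.

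The genes lie on all 5 nuclear chromosomes, 14 of them on chromosome 1, and 12 have a single coding exon. To show what lies in front of the genes, the 250 bases before the annotated start were read from the RefSeq TAIR10.1 genome and searched on both strands for 4 motifs. The G-box CACGTG, an element bound by light-related transcription factors, was present in 6 of the 32 windows (18.8%), against 6.49% of 27443 protein-coding genes. The I-box core GATAAG, known from promoters of photosynthesis genes, was in 9 windows (28.1%) against 12.3%. CCAATC was in 4 windows (12.5%) against 10.2%, and the TATA-type motif TATAAA in 16 windows (50%) against 47.3%. A match is only a description of the letters. In 19 of the 32 windows another annotated gene is present, and the 4 windows below hold none. PSBQ2 (chr4:2673244-2673493, minus strand) and PSBR (chr1:29735702-29735951, plus strand) are shown because they had the largest and the smallest fall of the photosystem II genes in albino seedlings. PSAF (chr1:11216142-11216391, minus strand) and FD2 (chr1:22444057-22444306, plus strand) are shown because they were lower in green seedlings too. Capitals mark the G-box, the I-box and CCAATC in either orientation.
PSBQ2: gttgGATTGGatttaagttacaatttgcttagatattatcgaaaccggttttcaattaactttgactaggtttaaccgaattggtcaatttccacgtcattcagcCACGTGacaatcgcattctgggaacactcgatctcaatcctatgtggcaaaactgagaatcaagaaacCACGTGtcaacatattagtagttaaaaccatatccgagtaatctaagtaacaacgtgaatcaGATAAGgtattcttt
PSBR: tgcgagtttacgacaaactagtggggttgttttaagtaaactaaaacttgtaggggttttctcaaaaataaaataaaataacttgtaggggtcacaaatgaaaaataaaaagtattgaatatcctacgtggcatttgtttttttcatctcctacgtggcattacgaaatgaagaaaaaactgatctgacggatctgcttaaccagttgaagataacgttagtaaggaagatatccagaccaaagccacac
PSAF: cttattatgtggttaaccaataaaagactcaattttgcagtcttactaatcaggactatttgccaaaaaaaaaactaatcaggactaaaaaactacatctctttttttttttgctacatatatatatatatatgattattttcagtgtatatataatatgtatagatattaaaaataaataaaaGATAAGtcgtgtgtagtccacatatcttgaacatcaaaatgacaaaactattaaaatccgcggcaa
FD2: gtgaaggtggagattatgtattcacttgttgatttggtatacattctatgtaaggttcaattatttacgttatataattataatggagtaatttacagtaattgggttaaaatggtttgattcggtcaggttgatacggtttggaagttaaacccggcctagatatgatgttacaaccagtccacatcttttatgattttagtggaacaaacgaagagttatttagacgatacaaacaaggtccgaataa
The PSBQ2 window holds 2 G-boxes, 1 I-box and 1 CCAATC, the PSAF window 1 I-box, and the windows of PSBR and FD2 none of the 4 motifs.

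Levels are given as scaled FPKM, that is, fragments corrected for transcript length and library size and then scaled by the authors, in the order of replicates 1, 2 and 3. Log2 fold changes are differences of the group means of log2(scaled FPKM + 1), followed by their standard error. They were tested with limma over 19731 genes, and a gene was called when its Benjamini-Hochberg adjusted p was below 0.05. The depth of each library is unknown, as no read totals were used; between 22926 and 23963 genes per library were above 0. RNA of 2CPA stood at 989, 763 and 889.7 in wild-type libraries, 35.8, 267 and 256 in green and 24.2, 21.4 and 25.4 in albino libraries. RNA of 2CPB stood at 237, 174 and 188 in wild-type libraries, 7.21, 48.65 and 54.2 in green and 1.82, 2.89 and 1.52 in albino libraries. Green replicate 1 therefore stood apart from the other green libraries in both genes, nearer to the albino libraries. Green replicates 2 and 3 lay between it and the wild type in both. Green replicate 1 was also the lowest green library for 32 of the 32 electron transport genes, a count that was not taken over all tested genes.

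In the wild type these were among the most abundant RNAs of the seedling. Ranked by mean level among the 19731 tested genes, 30 of the 32 lay in the top 1%, led by PSBR at rank 8, while FNR2 was at rank 234 and the minor plastocyanin gene PETE1 at rank 662. Together the 32 genes took 7.66%, 6.74% and 6.18% of all FPKM in the wild-type libraries. Their share was 5.25%, 6.49% and 6.07% in green libraries and 1.39%, 1.22% and 1.32% in albino libraries. The albino shares were all below the others, and the green shares overlapped with the wild type. In albino seedlings 5 of the 32 genes remained in the top 1%, led by PSBR at rank 24, and PETE1 was at rank 4867.

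**Figure D1:**
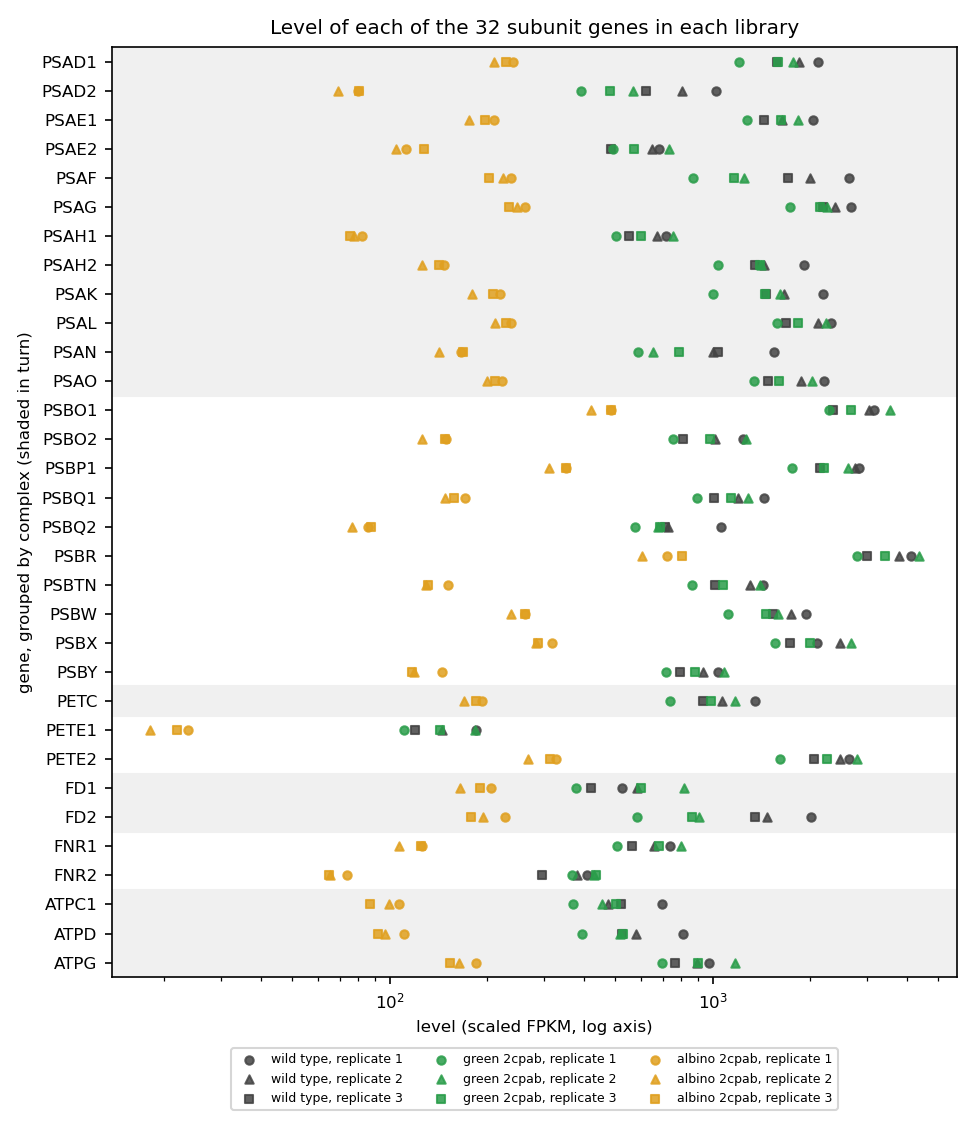
Level of each of the 32 genes (rows, shaded in turn by complex) in scaled FPKM on a log axis, with 1 symbol per library in the wild type (grey), green 2cpab (green) and albino 2cpab (yellow). For 32 of 32 genes the 3 albino libraries lie below all 6 others, while green and wild-type libraries mostly overlap.

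The albino seedlings had less RNA of every one of the 32 genes than the wild type. All 32 fell, against 20.1% of the 19731 tested genes called lower and 23.4% called higher, and for all 32 the albino libraries lay below all wild-type libraries, against 24.4% of tested genes. The median log2 fold change was -2.90, which is 7.46-fold lower, and the median of all tested genes was 0.07. The falls ranged from -3.48 for PSAH2 to -1.43 for FD1, and without FD1 from -3.48 to -2.35. In limma the adjusted p values lay between 1.58e-06 and 0.00124. Only 131 tested genes (0.664%) had a lower fold change than the median of these 32, and that count includes the members below their own median.

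In whole seedlings, fewer cells of a type and less RNA per cell cannot be told apart. Of 4 guard cell markers, 4 fell as well, against 20.1% of tested genes called lower. Their summed levels were 19.98 to 22.4 in wild-type and 8.56 to 9.87 in albino libraries. Of 8 root markers, 2 rose, which is near the 23.4% of tested genes called higher. Their summed levels were 67.9 to 129 in wild-type and 107 to 124 in albino libraries. ESB1, a gene of the root Casparian strip, was at 0 in part of the libraries. The root count was 1 when wild-type replicate 1 or either of albino replicates 2 and 3 was left out, 3 without albino replicate 1 and 4 without wild-type replicate 2. Of 5 leaf polarity markers 0 were called in limma (0 at an unadjusted p below 0.05), with sums of 78.6 to 99.9 against 82.9 to 87.4. Of 3 epidermis markers 1 fell, with sums of 205 to 269 against 189 to 205, though 0 were called when any 1 albino library or wild-type replicate 1 or 2 was left out and 2 without wild-type replicate 3. The part of these markers in the result was not tested. The authors' scaling factor, inferred from the values, was also lower in albino libraries, 0.787 ± 0.00551 against 1.05 ± 0.0528 in the wild type (SD, n = 3 each). With TPM in its place the median of all tested genes moved from 0.07 to 0.51, and the calls went from 4613 higher and 3968 lower to 12212 higher and 2104 lower. The median of the 32 genes was then -2.43, a difference of -2.94 from that of all genes, against -2.97 with the deposited scaling, and all 32 were still called lower.

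Every complex of the chain took part in the fall. Photosystem I genes had a median log2 fold change of -3.11 (12 genes), photosystem II genes of -2.84 (10 genes) and the plastocyanins of -2.86. PETC was at -2.59, the ATP synthase genes at a median of -2.50, the FNR genes at -2.41 and the ferredoxins at -2.21. The ranges of photosystem I and photosystem II genes overlapped, and no difference between complexes was tested.

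**Figure D2:**
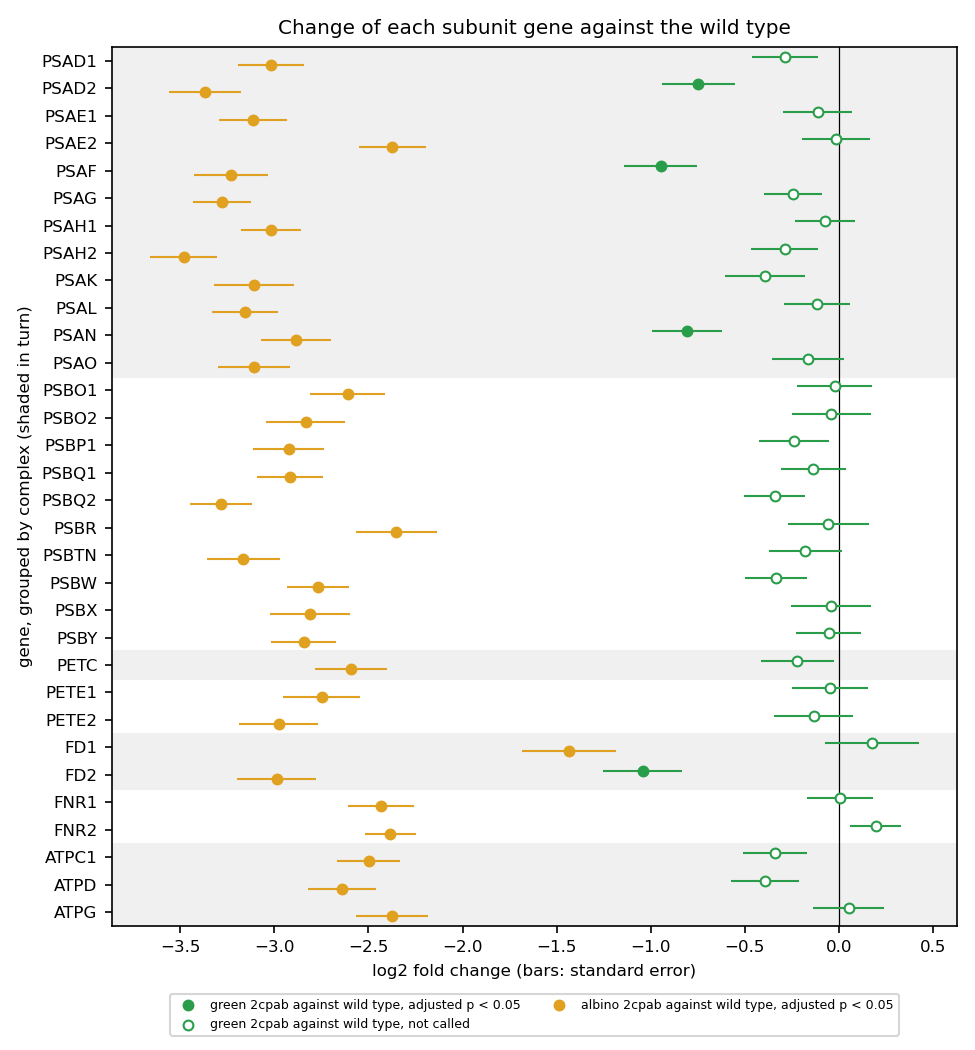
Log2 fold change against the wild type (x axis, bars show the standard error) for each of the 32 genes in green (green) and albino (yellow) 2cpab seedlings. Filled points are called at an adjusted p below 0.05 and open points are not. All 32 albino points lie between -3.48 and -1.43, and 4 green points are filled. Both sets of values share the wild-type libraries.

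Among the photosystem I genes, the stromal side is formed by PSAD and PSAE, which dock ferredoxin, each encoded by a pair of genes. PSAD1 (AT4G02770, chr4:1229031-1230164) stood at 2114, 1854 and 1579 in wild-type libraries, 1208, 1778 and 1591 in green and 240.2, 210.2 and 229 in albino libraries. The values of PSAD2 (AT1G03130, chr1:753307-754262) were 1021, 801 and 622 in wild-type libraries, 392, 567 and 482 in green and 79.95, 69.1 and 80.7 in albino libraries. Albino libraries were the lowest for both, with log2 fold changes of -3.02 ± 0.18 and -3.37 ± 0.19, and green libraries of PSAD2 alone lay below the wild type without overlap. PSAE1 (AT4G28750, chr4:14202758-14204061) was measured at 2045, 1639 and 1438 in wild-type libraries, 1274, 1838 and 1624 in green and 211, 176 and 197 in albino libraries. For PSAE2 (AT2G20260, chr2:8736734-8737767) the levels were 679.8, 647 and 484 in wild-type libraries, 491, 735 and 572 in green and 112, 105 and 128 in albino libraries. The green and wild-type groups overlapped in both PSAE genes, and in albino seedlings the log2 fold changes were -3.11 ± 0.18 for PSAE1 and -2.37 ± 0.18 for PSAE2, the smallest fall of photosystem I.

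On the lumenal side, PSAF and PSAN take part in the binding of plastocyanin. PSAF (AT1G31330, chr1:11214676-11216141) stood at 2647, 2003 and 1714 in wild-type libraries, 868, 1249 and 1166 in green and 238, 225 and 203 in albino libraries. PSAN (AT5G64040, chr5:25628521-25629708) had 1552, 1004 and 1040.0 in wild-type libraries, 588, 654 and 785 in green and 166, 142 and 169 in albino libraries. In both genes the 3 groups formed separate steps, with green between the wild type and albino. Against the wild type the albino change was -3.23 ± 0.19 for PSAF and -2.88 ± 0.19 for PSAN, the latter being the smallest fall of the single-copy photosystem I genes.

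PSAG, a membrane subunit near the light-harvesting antenna, showed the largest fall of the single-copy photosystem I genes. Its levels (AT1G55670, chr1:20802670-20803449) were 2689, 2386 and 2187 in wild-type libraries, 1735, 2266 and 2148 in green and 262, 248 and 234 in albino libraries, and its albino change was -3.28 ± 0.15. PSAH, which takes part in the docking of the photosystem II antenna during state transitions, has a pair of genes. PSAH1 (AT3G16140, chr3:5467987-5469594) was at 719, 673 and 549 in wild-type libraries, 502, 753 and 601 in green and 82.3, 77.7 and 75.4 in albino libraries. PSAH2 (AT1G52230, chr1:19454798-19455668) was at 1922, 1441 and 1350.4 in wild-type libraries, 1035, 1409 and 1406 in green and 147, 126 and 142 in albino libraries. Green libraries overlapped with the wild type in all 3 of these genes, and albino libraries were lowest, with changes of -3.02 ± 0.16 for PSAH1 and -3.48 ± 0.18 for PSAH2, the largest fall of the 32. The other photosystem I genes, PSAK at the antenna side and PSAL and PSAO at the side where the mobile antenna docks, had wild-type means of 1771, 2040 and 1856 and albino means of 202.5, 226 and 212.

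Photosystem II is represented by its extrinsic oxygen-evolving proteins and by small membrane or lumenal subunits. PSBO stabilises the manganese cluster that splits water. PSBO1 (AT5G66570, chr5:26568572-26570461) stood at 3165, 3036 and 2352 in wild-type libraries, 2283, 3531 and 2678 in green and 484, 421 and 485 in albino libraries. PSBO2 (AT3G50820, chr3:18890874-18892508) was found at 1243, 1016 and 810.3 in wild-type libraries, 755, 1269.6 and 982 in green and 149, 126 and 149 in albino libraries. The green values of both spread around those of the wild type, and the albino changes were -2.61 ± 0.20 and -2.83 ± 0.21. PSBQ, with PSBP, helps to retain the calcium and chloride of the water-splitting site. Levels of PSBQ1 (AT4G21280, chr4:11334352-11335815) were 1437, 1201 and 1012 in wild-type libraries, 896, 1283 and 1143 in green and 171, 148 and 158 in albino libraries. Those of PSBQ2 (AT4G05180, chr4:2671523-2673243) were 1058, 728 and 712 in wild-type libraries, 577, 678 and 688 in green and 85.97, 76.2 and 87.8 in albino libraries. Green libraries lay just below the wild type in PSBQ2, which was not called there (limma adjusted p = 0.26), and overlapped with it in PSBQ1. In albino seedlings PSBQ1 changed by -2.92 ± 0.17 and PSBQ2, whose promoter window is printed above, by -3.28 ± 0.16.

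PSBR, a small subunit needed for stable attachment of the extrinsic proteins, was the most abundant of the 32 RNAs. Its levels (AT1G79040, chr1:29735952-29737009) were 4105, 3775 and 3006 in wild-type libraries, 2794, 4339 and 3420.2 in green and 722, 603 and 804 in albino libraries. PSBTN (AT3G21055, chr3:7376432-7377226), a small lumenal subunit, was at 1433, 1302 and 1018 in wild-type libraries, 865, 1405 and 1076 in green and 152, 129.7 and 131 in albino libraries. They mark the smallest and the largest albino fall of the single-copy photosystem II genes, -2.35 ± 0.22 and -3.16 ± 0.19, and their green libraries overlapped with the wild type. PSBP1, PSBW, which stabilises antenna supercomplexes, and the small membrane subunits PSBX and PSBY had albino changes of -2.92 ± 0.19, -2.77 ± 0.16, -2.81 ± 0.21 and -2.84 ± 0.17.

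Between the photosystems, PETC encodes the Rieske iron-sulfur protein of the cytochrome b6f complex. It (AT4G03280, chr4:1440146-1441863) stood at 1352, 1071 and 934 in wild-type libraries, 737, 1176 and 987 in green and 193, 170.4 and 185 in albino libraries. The 2 plastocyanin genes differ in level, since PETE2 encodes the major form. PETE1 (AT1G76100, chr1:28553883-28554930) was at 185, 146 and 120.0 in wild-type libraries, 111, 184 and 144 in green and 23.7, 18.2 and 21.999 in albino libraries. PETE2 (AT1G20340, chr1:7042046-7043392) was at 2650.2, 2479 and 2056 in wild-type libraries, 1617, 2795 and 2264 in green and 327, 268 and 315 in albino libraries. In all 3 genes green and wild-type libraries overlapped and albino libraries were lower, with log2 fold changes of -2.59 ± 0.19 for PETC, -2.75 ± 0.20 for PETE1 and -2.98 ± 0.21 for PETE2.

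The leaf ferredoxins, soluble iron-sulfur proteins that take electrons from photosystem I, differed from each other in both mutant groups. FD1 (AT1G10960, chr1:3664187-3665040), known as the minor leaf form, stood at 524, 581 and 421 in wild-type libraries, 379, 812 and 599.9 in green and 206, 165 and 190.2 in albino libraries. FD2 (AT1G60950, chr1:22444307-22445291), the major leaf form, had 2012, 1471 and 1352 in wild-type libraries, 583, 909.9 and 860.1 in green and 228, 195 and 178 in albino libraries. FD1 in green ranged from below to above all wild-type libraries, whereas FD2 was lower in every green library than in any wild-type one. In albino seedlings FD1 changed by -1.43 ± 0.25 (limma adjusted p = 0.00124), the smallest fall of the 32, and FD2 by -2.99 ± 0.21 (limma adjusted p = 6.44e-06), close to the median. Ferredoxin means were 509 for FD1 and 1611 for FD2 in the wild type, and 187 and 200.2 in albino seedlings. FD1 shares 78 bases with TMN1, on the same strand, whose mean level was 50.6 in the wild type and 51.1 in albino seedlings, so reads at that end are uncertain.

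FNR1 and FNR2 encode the leaf enzymes that reduce NADP with electrons from ferredoxin. FNR1 (AT5G66190, chr5:26450964-26453199) stood at 737, 657 and 561 in wild-type libraries, 506, 797 and 683 in green and 126, 107 and 125 in albino libraries. FNR2 (AT1G20020, chr1:6942625-6945091) was at 407, 379 and 297 in wild-type libraries, 368, 430.4 and 434 in green and 73.6, 65.2 and 64.8 in albino libraries. Green and wild-type libraries overlapped in both, and the albino changes, -2.43 ± 0.18 and -2.38 ± 0.14, differed by less than their standard errors. Of the ATP synthase genes, ATPD, for the delta subunit of the catalytic head, and ATPG, for a b-type subunit of the stalk, had the largest and the smallest albino fall. ATPD (AT4G09650, chr4:6100714-6101864) was at 808, 579 and 523 in wild-type libraries, 395, 518 and 528 in green and 111, 96.7 and 91.8 in albino libraries. ATPG (AT4G32260, chr4:15573553-15574737) was at 971, 896 and 762 in wild-type libraries, 697, 1173 and 903 in green and 186, 164 and 154 in albino libraries. Albino libraries were lowest for both, with changes of -2.64 ± 0.18 and -2.37 ± 0.19, and ATPC1, for the gamma subunit of the rotor, changed by -2.50 ± 0.17.

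In green mutant seedlings FD2, PSAF, PSAN and PSAD2 fell, and the other 28 genes were not called. That is 4 of 32 lower and 0 higher, against 5.16% of the 19731 tested genes called lower and 3.71% called higher. The changes were -1.04 ± 0.21 for FD2 (limma adjusted p = 0.0144), -0.95 ± 0.19 for PSAF (limma adjusted p = 0.0159), -0.81 ± 0.19 for PSAN (limma adjusted p = 0.0263) and -0.75 ± 0.19 for PSAD2 (limma adjusted p = 0.0405). FD2 carries electrons away from photosystem I, PSAD2 is part of the docking site of ferredoxin, and PSAF and PSAN take part in binding plastocyanin. Other genes at these steps were not called in green seedlings. Their changes were -0.29 for PSAD1, -0.11 for PSAE1, -0.02 for PSAE2, -0.05 for PETE1, -0.13 for PETE2 and 0.17 for FD1. The levels of FD2 and PSAF in green libraries were 48.7% and 51.6% of the wild type, those of PSAN and PSAD2 56.4% and 59.0%. With PSBQ2, 5 of the 32 lay below the wild type in every green library, against 11.8% of tested genes. The other 28 genes had log2 fold changes from -0.39 to 0.19 with a median of -0.12, and none had an adjusted p under 0.244. The median of the 32 was -0.15, and that of all tested genes 0.02.

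FD2 and PSAF were called whichever library was left out. PSAN was not called without wild-type replicate 1 (limma adjusted p = 0.0506), green replicate 1 (adjusted p = 0.0759) or green replicate 2 (adjusted p = 0.0717). PSAD2 was not called without wild-type replicate 1 or 2, green replicate 1 or 3, or any 1 albino library, with adjusted p from 0.0630 to 0.112 in limma. When the fit held only the 6 libraries compared, 0 of the 32 were called, though 4 had an unadjusted p below 0.05; the adjusted p was then 0.0556 for FD2 and 0.0736 for PSAF. The median over the 32 genes was -0.00 without green replicate 1, with 16 of 32 below 0, and -0.05 without wild-type replicate 1, with 20 of 32 below 0. It was -0.32 without green replicate 2, with 31 of 32 below 0, and -0.29 without wild-type replicate 3, with 30 of 32 below 0. Root markers summed to 60.2 to 78.3 in green libraries, against 67.9 to 129 in the wild type. Guard cell markers summed to 16.4 to 18.5, against 19.98 to 22.4 in the wild type. Against the wild type 0 of 8 and 0 of 4 were called in limma (3 and 2 at an unadjusted p below 0.05). For 1 of the 8 and 3 of the 4, every green library lay below every wild-type library, against 11.8% of tested genes. Without wild-type replicate 1, 3 root markers were called lower. Leaf polarity markers summed to 98.9 to 121 in green libraries, against 78.6 to 99.9 in the wild type, and epidermis markers to 212 to 244. Of these 0 of 5 and 0 of 3 were called in limma (2 and 0 at an unadjusted p below 0.05). The part of these markers in the green result was not tested.

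Libraries of a group differed by shifts that most of the 32 genes shared. Wild-type replicate 1 was the highest wild-type library for 30 genes and replicate 3 the lowest for 30. Green replicate 1 lay below every wild-type library for 30 of the 32 genes, green replicate 2 for 7 and green replicate 3 for 8. These counts were not taken over all tested genes, so a shift of a whole library cannot be told from one of these genes. The median log2 deviation from the wild-type mean was 0.21, 0.01 and -0.25 in wild-type replicates 1 to 3, and -0.46, 0.13 and -0.14 in the green replicates. In albino replicates it was -2.80, -3.02 and -2.89. To set the shared shift aside, this median was taken from each gene in each library, which gives a level relative to the median gene of the set; the values are a description with no test. On that scale FD2 stood at -0.98, -0.94 and -0.74 in the green replicates, PSAF at -0.80, -0.87 and -0.70, PSAN at -0.54, -0.98 and -0.44 and PSAD2 at -0.56, -0.63 and -0.58. Green replicate 1 was not apart in these 4 genes.

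**Figure D3:**
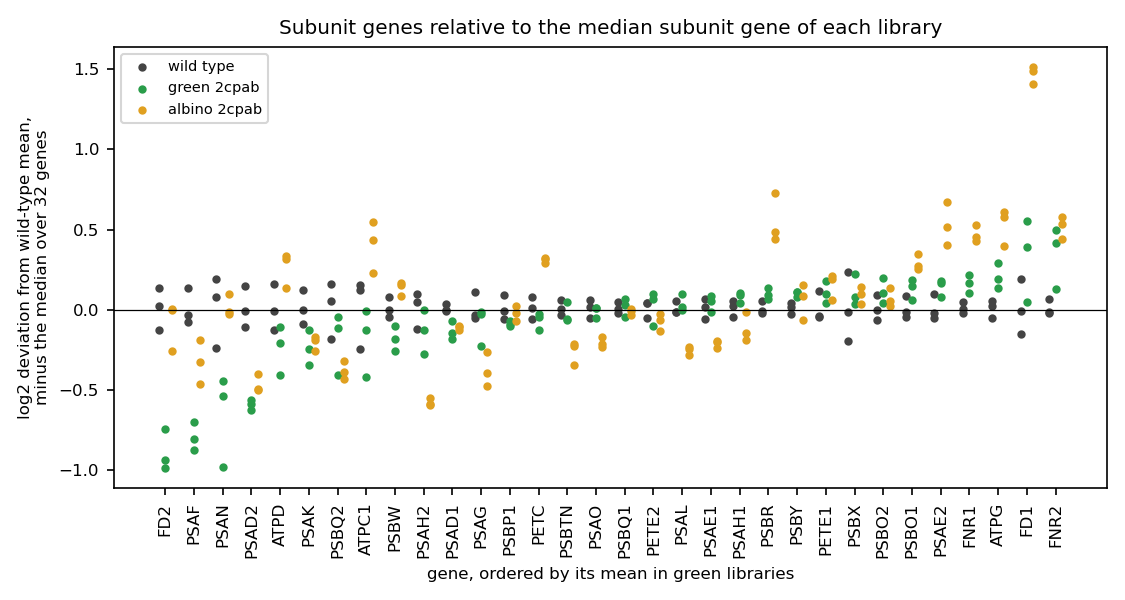
For each of the 32 genes (x axis, ordered by the green mean), the log2 deviation from its wild-type mean minus the median deviation of the 32 genes in the same library. Each point is 1 library. FD2, PSAF, PSAN and PSAD2 lie lowest in green libraries, and FD1 lies highest in albino libraries, between 1.41 and 1.51.

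On the same relative scale FD1 was the highest gene in albino libraries, at 1.51, 1.41 and 1.49. PSBR, at 0.49, 0.44 and 0.73, PSAE2, at 0.40, 0.52 and 0.67, and both FNR genes also lay above the wild type. So did ATPG, at 0.58, 0.61 and 0.40, and ATPC1, PETC, PSBO1 and PSBW. With FD1, 10 genes lay above the wild type without overlap in albino libraries, 11 lay below it and 11 overlapped with it. PSAH2 was the lowest, at -0.59, -0.59 and -0.55, followed by PSAD2 at -0.50, -0.49 and -0.40. FD2 and PSAN, which were low on this scale in green libraries, had albino means of -0.08 and 0.02 and overlapped with the wild type. PSAF, also low in green libraries, stood at -0.32, -0.19 and -0.46 in albino libraries. Both PSAF and PSAD2 lay below the wild type there without overlap.

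For the 8 paralog pairs, the share of the second gene in the sum of the pair was compared, since the authors' scaling cancels in it. All 24 comparisons used exact two-sided permutation tests, and with 3 libraries against 3 the smallest p that can be reached is 0.1, so none can pass 0.05. FD2 took 79.3, 71.7 and 76.2% of the ferredoxin sum in wild-type libraries, 60.6, 52.8 and 58.9% in green and 52.5, 54.2 and 48.4% in albino libraries. Each mutant library lay below the wild-type libraries (exact permutation p = 0.1 for each mutant group), by 18.3 percentage points in green and 24.0 in albino means, and green and albino libraries overlapped. PSAE2 took 24.9, 28.3 and 25.2% of its pair in wild-type libraries, 27.8, 28.6 and 26.04% in green and 34.7, 37.3 and 39.3% in albino libraries. It was higher in albino than in all other libraries, by 10.96 points against the wild type and 9.64 against green (exact permutation p = 0.1 for each). PSAD2 took 32.6, 30.2 and 28.2% in wild-type libraries, 24.5, 24.2 and 23.3% in green and 24.98, 24.7 and 26.02% in albino libraries. It was lower in both mutant groups without overlap, by 6.34 and 5.08 points (exact permutation p = 0.1 for each).

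The share of PSAH2 had means of 70.7% in the wild type and 63.8% in albino seedlings, that of PSBQ2 40.5% and 34.4%, and that of PSBO2 26.3% and 23.3%. These 3 did not overlap between albino and wild-type libraries (exact permutation p = 0.1 for each), and they overlapped between green and wild-type libraries. Of the plastocyanin sum, PETE2 had 94.1% in wild-type, 93.8% in green and 93.5% in albino means, and FNR2 had 35.6%, 38.7% and 36.3%, with overlap in every comparison. In their coding sequences the pairs are 74.95% (PETE) to 88.0% (PSAD) identical, and the longest run of identical bases is 17 (PETE and FNR) to 35 (PSAD). How reads that fit both copies were assigned is not given in the sources used here, so the split within a pair is uncertain to that extent.

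**Figure D4:**
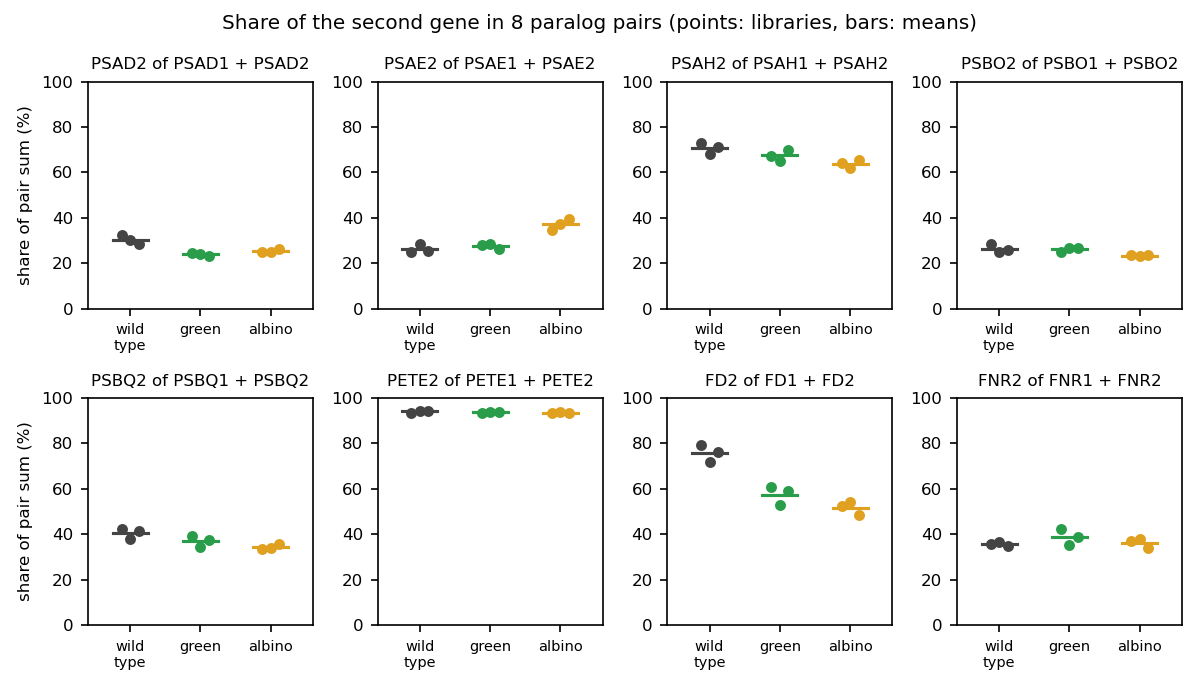
Share of the second gene in the summed level of each of 8 paralog pairs (y axis, percent) by group, with 1 point per library and a bar at the mean. The FD2 share lies between 71.7 and 79.3% in wild-type libraries and between 48.4 and 54.2% in albino libraries, and the PSAE2 share lies between 34.7 and 39.3% in albino libraries.

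Albino seedlings were also compared with green seedlings of the same mutant name. RNA of 2CPA and 2CPB was itself lower in albino than in green libraries. The changes were -2.47 ± 0.62 (limma adjusted p = 0.0115) and -3.22 ± 0.60 (limma adjusted p = 0.00231). All 32 genes fell, against 17.7% of tested genes called lower, with a median log2 fold change of -2.69 and a range from -3.19 for PSAH2 to -1.61 for FD1. For all 32, each albino library lay below each green library, against 23.8% of tested genes. The adjusted p in limma lay between 2.90e-06 and 0.000834, and the median of all tested genes was 0.05, or 0.47 with TPM, under which all 32 were still called lower. Of the genes already lower in green seedlings, FD2, PSAN, PSAF and PSAD2 had changes of -1.94 ± 0.21, -2.08 ± 0.19, -2.28 ± 0.19 and -2.62 ± 0.19 here. FD1 changed by -1.61 ± 0.25, PSAG by -3.03 ± 0.15, PSBTN by -2.99 ± 0.19 and PSBR by -2.29 ± 0.22. The comparison shares its albino libraries with the one against the wild type. Of the root markers 6 of 8 were higher in albino than in green seedlings (4 without albino replicate 2), against 18.5% of tested genes called higher. Of the guard cell markers 4 of 4 were lower, and of the leaf polarity markers 2 of 5 (3 without green replicate 2). Of the epidermis markers 0 of 3 were called in limma, with 0 at an unadjusted p below 0.05. The part of these markers in the result was not tested.

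Other nuclear genes of the pathway, from lists made from general knowledge, were set beside the 32. Changes of these lists and of the markers are given with the deposited scaling. TPM moved the median of all tested genes from 0.07 to 0.51 in albino against wild-type libraries. Small changes, called or not, therefore rest on the deposited scaling. Of 10 minor subunits and thylakoid proteins, 9 fell in albino seedlings against the wild type, with a median of -2.38, and 0 rose. CURT1B, which curves the grana margins, changed by -3.20 ± 0.18 and PSBS, which triggers the dissipation of excess light energy, by -3.11 ± 0.20. In green seedlings 1 of the 10 fell, PETM, a small subunit of the cytochrome b6f complex. PETM stood at 658, 461 and 436 in wild-type libraries, 221, 317 and 314 in green and 134, 121 and 133 in albino libraries. Its groups did not overlap, and its green change was -0.86 ± 0.19 (limma adjusted p = 0.0196), or an adjusted p of 0.0664 when limma held only the 6 libraries compared.

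Of 13 genes for cyclic electron flow, the chloroplast NDH complex and thylakoid kinases, 11 fell in albino seedlings, with a median of -2.12. NDHL and NDHM, subunits of the NDH complex, changed by -3.08 ± 0.16 and -2.85 ± 0.22, while PGRL1B, of the cyclic flow pathway, and PTOX, the plastid terminal oxidase, had -0.00 ± 0.11 and 0.17 ± 0.13 and were not called. Of 16 assembly factors, 16 fell, with a median of -1.12 against -2.90 for the 32 subunit genes. HCF244, which acts in synthesis of a photosystem II core protein, changed by -2.33 ± 0.15 and CYP38, an immunophilin of photosystem II assembly, by -2.28 ± 0.16. In green seedlings 0 genes of these 2 lists were called in limma, and 0 had an unadjusted p below 0.05.

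Among 6 other ferredoxin, FNR and ATP synthase isoforms the direction was mixed. FDC1 and ATPC2 were listed at 0 in every library. RFNR1, a root-type FNR, stood at 22.9, 28.9 and 29.8 in wild-type libraries, 49.7, 34.4 and 31.1 in green and 59.8, 56.8 and 48.6 in albino libraries. It rose in albino seedlings by 1.00 ± 0.17 (limma adjusted p = 0.00123), and RFNR2 by 0.40 ± 0.11 (limma adjusted p = 0.0187). RFNR2 lost its call without wild-type replicate 1, without wild-type replicate 3 and without albino replicate 3, where the adjusted p in limma was 0.0527, 0.0574 and 0.0650. FD3, the root-type ferredoxin, had 0.31 ± 0.14 (limma adjusted p = 0.0951) and was not called. FDC2, a ferredoxin-like protein, fell, at -1.31 ± 0.13. In green seedlings 0 of the 4 tested isoforms were called in limma, with 1 at an unadjusted p below 0.05.

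**Figure D5:**
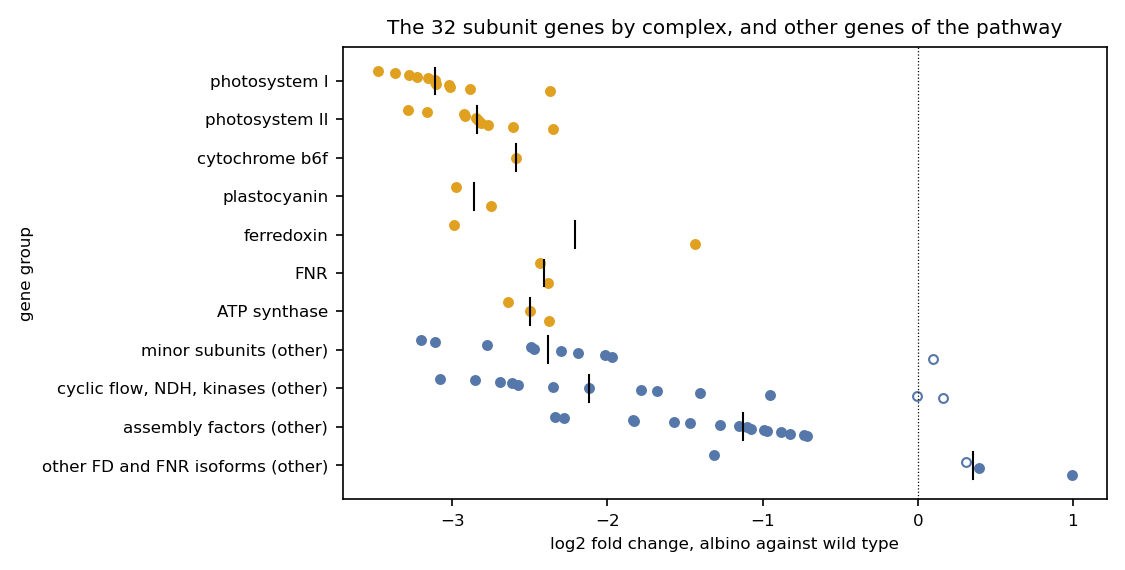
Log2 fold change in albino against wild-type seedlings (x axis) of the 32 genes by complex (yellow) and of 4 further lists (blue), with 1 point per gene and a bar at the median. Filled points are called at an adjusted p below 0.05. All yellow points lie between -3.48 and -1.43, the assembly factors have a median of -1.12, and RFNR1 lies farthest right at 1.00.

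Of the 32 genes, 11 overlap another annotated gene in TAIR10.1. The overlapping genes had mean levels of at most 52.7, and AT4G28755, AT1G55673 and ROPGEF13, which lie opposite PSAE1, PSAG and PSAH1 over 436, 479 and 788 bases, were listed at 0. The libraries were made with a stranded kit, but whether counting used the strand is not given in the sources used here.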

How the data were processed

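Poly(A) RNA of 9 seedling libraries was extracted with a SurePrep kit and made into libraries with a stranded Illumina mRNA ligation kit, per the labels' protocols. Per the submitters' processing notes the tools were FastQC, HISAT2 and StringTie (versions not given) and the build TAIR10. As deposited, the table holds log2 values for 32833 genes. Read from the values, these are log2 of scaled FPKM plus 1 with a common 75th percentile of 3.70, so no further log was taken, although the plan had assumed FPKM. The scaling factor of each library was inferred as the one that put most of 300 low values on a grid of 6 decimals. With it undone, 90.3% to 94.0% of these values per library fell within 0.1 of a step. The median over the factors tried was 20%. As the factor was picked by this share, the share is no separate check of it. Read counts were not used here, so depth per library is unknown.

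Of the gene codes, 32548 matched RefSeq locus tags of TAIR10.1, which also gave symbols, positions and promoter windows. The 133 plastid codes could not be paired with names and are not reported here. The 19731 genes that reached a scaled FPKM of 1 in 3 or more libraries were fitted with limma 3.58.1 in R 4.3.3. The fit took 1 mean for each group over the 9 libraries, with a variance trend, and Benjamini-Hochberg adjustment ran over all tested genes. The code was tested on simulated data. Exact permutation tests used scipy 1.17.1, and figures matplotlib 3.10.9.

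The genes and lists were chosen with earlier results of these data known. Values in every library are given for both genes of each pair, PETC, the single-copy genes with the largest and smallest albino fall in each complex, and those called in green seedlings. For each comparison 21 alternatives changed the pseudocount, filter, scaling or fit, or left out libraries; undoing the authors' scaling was added after seeing the data.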

Additional observations from a re-analysis of the deposited data

How the results depend on the processing

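All 32 genes were called lower in albino against wild-type and against green libraries under each of the 21 alternatives, and the log2 fold changes of the 24 genes given in every library kept direction and call in 504 of 504 cases in each of these comparisons. The median over the 32 genes in albino against wild-type libraries ranged from -3.02 to -2.22. In green against wild-type libraries, where 4 genes were called, the count was 2 with no filter on low values. It was 0 with only the 6 libraries compared, where 4 had an unadjusted p below 0.05 in limma. It ranged from 2 to 4 with 1 library left out. With green replicate 1 as the sole green library (which was assumed to vary like the other groups), the median over the 32 genes was -0.46, with 31 of 32 below 0. With all libraries the median was -0.15, with 28 of 32 below 0. Of 84 values for FD2, PSAF, PSAN and PSAD2, 65 stayed called, 19 did not, and 0 reversed. Some alternatives changed only the filter, the variance trend or the block, or left out albino libraries. Their fold changes were those of the main fit, so no reversal could occur there. Their adjusted p in limma ranged over all fits from 0.00309 to 0.0556 for FD2, 0.00162 to 0.0736 for PSAF, 0.0149 to 0.0894 for PSAN and 0.00447 to 0.119 for PSAD2. The cause was not tested. The share of summed FPKM in green libraries was 5.25% in replicate 1 alone against a mean of 5.94%.

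Deviations of same-numbered libraries had correlations between -0.15 and 0.28. Differently numbered libraries were not correlated, so these values cannot decide whether the numbers mark pairs. The main fit did not take them as pairs. With the replicate number as a block, 3 genes were called in green against wild-type libraries, and 32 in each albino comparison. Without read counts, counting error could not be given.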
